A study of Mus musculus with 18 samples.

Results

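Foxa1 and Foxa2 were each given 1 terminal domain of Foxa3, either at the N terminus or at the C terminus, and the genomic sites bound by the 4 resulting proteins were compared. The 4 constructs were taken by their labels, as those that keep the DNA-binding domain of Foxa1 or of Foxa2, and they make up 4 of the 18 samples of the series. The series holds 9 samples with a peak list and 9 inputs, and the inputs were not analysed here. The 4 lists held 956, 5230, 4807 and 13715 peaks, which merged into 15614 regions, against 24999 regions over all 8 lists of Foxa swaps.

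Foxa proteins are forkhead transcription factors. A winged-helix domain in the middle of the protein contacts DNA, and the stretches on either side of it carry the regions that activate transcription and contact chromatin. Foxa1, Foxa2 and Foxa3 are known as pioneer factors of the liver because they can bind their sites in compact chromatin. Forced expression of Hnf4alpha, a nuclear receptor of hepatocytes, together with a Foxa protein turns fibroblasts into induced hepatocyte-like (iHep) cells.

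All libraries of the Foxa swaps came from C57BL/6 mouse embryonic fibroblasts of 13.5 days post coitum. These cells had received Hnf4alpha and 1 swapped Foxa protein by viral infection, so every swap group shares Hnf4alpha. Foxa1-N3 and Foxa2-N3 denote Foxa1 and Foxa2 with the N-terminal domain (NTD) of Foxa3, and their chromatin was pulled down with an antibody to Foxa3. Foxa1-C3 and Foxa2-C3 denote Foxa1 and Foxa2 with the C-terminal domain (CTD) of Foxa3, pulled down with antibodies to Foxa1 and to Foxa2. The antibody therefore changes with the swapped terminus, and an effect of the domain and an effect of the antibody cannot be told apart in a comparison of the sides. Each construct had 1 library, nothing was replicated, and no label says whether a culture was a pool or a clone. Intervals below are exact binomial (Clopper-Pearson) 95% intervals, which cover counting error only, and reads behind the peaks are unknown because the files list peaks. Positions are on mm9, counted from 1, and no gene is named because the gene table at hand is of another build.

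The lists differed first in length, and the sides overlapped. With the Foxa3 NTD, 956 peaks were listed for Foxa1-N3 and 5230 for Foxa2-N3. With the Foxa3 CTD, 4807 were listed for Foxa1-C3 and 13715 for Foxa2-C3. The Foxa2-N3 list was thus longer than the Foxa1-C3 list, while within each DNA-binding domain the Foxa3 CTD construct had more peaks, 5.03-fold for Foxa1 and 2.62-fold for Foxa2. On the log2 scale the mean was 11.13 ± 1.73 (SD, n = 2 constructs) for the Foxa3 NTD and 12.99 ± 1.07 (SD, n = 2 constructs) for the Foxa3 CTD, a difference of -1.86. The exact two-sided permutation test over the 6 splits of the constructs gave p = 0.667, and 2 constructs a side cannot go below 0.333. This test does not use the pairing by DNA-binding domain, in which both differences had the same sign. The Foxa1-N3 library stood apart, with the shortest list, and its narrowest peak was 242 bp against 297 to 314 bp in the other 3 lists. The score is the authors' own value, and its kind is not stated in the labels or files. It served to rank peaks, rank 1 being the highest in a list, and as a limit in 1 alternative (scores above 19.7). At rank 956 the score was 5.29 in Foxa1-N3, 30.9 in Foxa2-N3, 35.8 in Foxa1-C3 and 84.6 in Foxa2-C3, so a list of equal length reaches very different scores.

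The strongest sites were common to both sides. The 5 strongest peaks of each list fell into 11 regions, and all 11 carried a peak in each of the 4 lists. The region on chromosome 17 from 35848428 to 35849137 held the peak of rank 2 in Foxa1-N3, 5 in Foxa2-N3, 5 in Foxa1-C3 and 2 in Foxa2-C3. It was the sole region within the 5 strongest of every list. Ranks diverged elsewhere even among these sites. The region on chromosome 10 from 86307917 to 86308719 held rank 11 in Foxa1-N3, rank 2 in Foxa2-N3 and rank 10 in Foxa1-C3, but rank 1923 in Foxa2-C3. The region on chromosome 4 from 41577056 to 41577748 held ranks 8, 4 and 11 in Foxa1-N3, Foxa1-C3 and Foxa2-C3, but rank 412 in Foxa2-N3. In both cases the list that stood apart was a Foxa2 list, once on each side.

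Of the 15614 merged regions (peaks joined where they overlapped by at least 1 bp), 9636 (61.7%) carried a peak in 1 list and 600 (3.84%) in all 4. Single-list regions were mostly those of the longest list, with 7874 in Foxa2-C3, 1012 in Foxa2-N3, 701 in Foxa1-C3 and 49 in Foxa1-N3. Regions in both Foxa3 NTD lists and neither Foxa3 CTD list numbered 65, or 0.416% of all regions (0.321 to 0.530%). Regions in both Foxa3 CTD lists and neither Foxa3 NTD list numbered 1689, or 10.8% (10.3 to 11.3%). Sharing by DNA-binding domain alone was more uneven. There were 1627 regions in both Foxa2 lists and no Foxa1 list, and 5 in both Foxa1 lists and no Foxa2 list. The count of 65 is bounded by the 956 peaks of Foxa1-N3. Without that list, 1077 regions were in Foxa2-N3 and neither Foxa3 CTD list, and 1723 were in both Foxa3 CTD lists and not in Foxa2-N3. Without Foxa2-C3 the Foxa3 NTD count was 215, without Foxa2-N3 it was 114, and without Foxa1-C3 the Foxa3 CTD count was 9565. A further 1700 regions lacked a peak in Foxa1-N3 alone among the 4 lists.

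At equal list length the imbalance of the one-sided counts was no longer there. With the 956 strongest peaks of each list, 2128 regions resulted, of which 153 (7.19%, 6.13 to 8.37%) were in both Foxa3 NTD lists and neither Foxa3 CTD list. The reverse pattern held 149 regions (7%, 5.95 to 8.17%). The 2 intervals overlap almost entirely. Sharing by DNA-binding domain was rarer, with 28 regions in both Foxa1 lists alone and 53 in both Foxa2 lists alone, and the pairs that share neither domain nor side had 34 regions each. All 4 lists met in 248 regions (11.7%). Equal lengths tie the counts of 153 and 149 to each other through the other patterns, so their near-equality is in part built in. The sides differed elsewhere. Both Foxa3 CTD lists were joined by Foxa2-N3 alone in 113 regions and by Foxa1-N3 alone in 47. Both Foxa3 NTD lists were joined by Foxa2-C3 alone in 54 and by Foxa1-C3 alone in 35. Single-list regions numbered 355 in Foxa1-N3, 266 in Foxa2-N3, 301 in Foxa1-C3 and 258 in Foxa2-C3. With 478 peaks per list the counts were 74 for the Foxa3 NTD, 88 for the Foxa3 CTD, 11 for the Foxa1 and 36 for the Foxa2 DNA-binding domain.

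**Figure D1:**
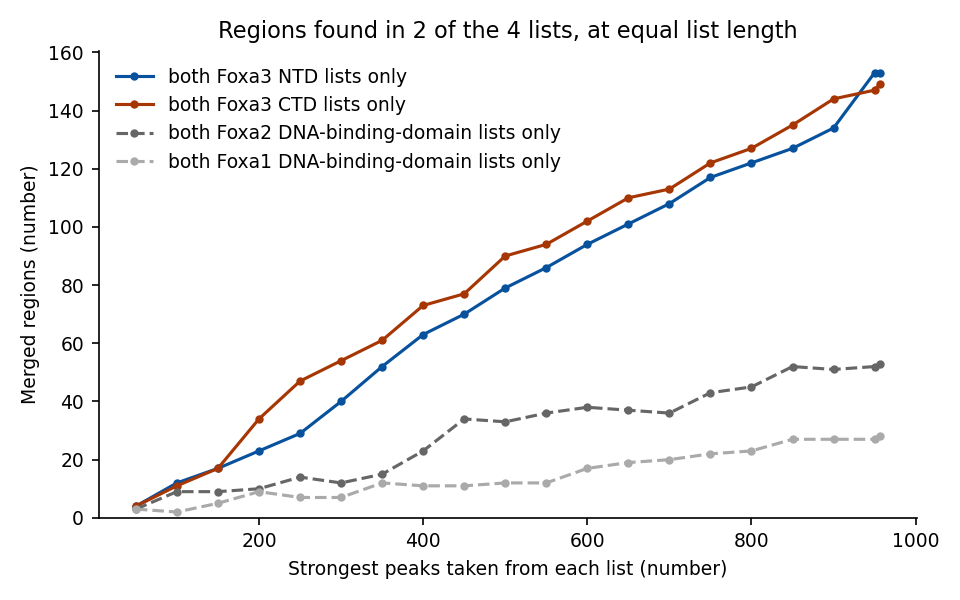
Number of merged regions (vertical axis) found in exactly 2 of the 4 lists, against the number of strongest peaks taken from each list (horizontal axis, 50 to 956), for the pairs that share a swapped Foxa3 terminus (solid lines) or a DNA-binding domain (dashed lines). The Foxa3 NTD and Foxa3 CTD lines rise side by side to 153 and 149 regions, above the lines of pairs that share a DNA-binding domain, which end at 53 and 28.

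The plot of regions by list length shows that the near-equality was not a matter of 1 length. At 100 peaks per list, 12 regions were found on the Foxa3 NTD side alone and 11 on the Foxa3 CTD side alone. The counts were furthest apart in ratio at 250 peaks, 29 against 47, and at 500 peaks they were 79 against 90. The 3 longer lists were also compared at 4807 peaks each, the length of Foxa1-C3, which leaves the short list out. There, 8695 regions resulted, and 1835 carried a peak in all 3 lists. Regions shared by Foxa1-C3 and Foxa2-C3 without Foxa2-N3 numbered 933, those shared by Foxa2-N3 and Foxa2-C3 without Foxa1-C3 numbered 675, and those shared by Foxa2-N3 and Foxa1-C3 without Foxa2-C3 numbered 441. The pair with the same terminus thus shared more than the pair with the same DNA-binding domain in these 3 lists as well.

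Similarity was summarised by the Jaccard index, the share of the merged regions of a pair of lists that carry a peak in both, on the 956 strongest peaks. The index was 0.345 for Foxa1-N3 with Foxa2-N3 and 0.411 for Foxa1-C3 with Foxa2-C3. It was 0.324 for Foxa2-N3 with Foxa2-C3 and 0.231 for Foxa1-N3 with Foxa1-C3. The pairs that differ in both were at 0.290 (Foxa2-N3 with Foxa1-C3) and 0.251 (Foxa1-N3 with Foxa2-C3). Both same-side pairs lay above all 4 pairs across the sides, and the mean was 0.378 against 0.274, a difference of 0.104. The lowest same-side value, 0.345, and the highest value across the sides, 0.324, were close, and both involve Foxa2-N3. With all peaks the difference was 0.0235, because lists of unequal length bound the index. The same pairs that share a terminus also share an arrangement of antibody, with 1 antibody for the Foxa3 NTD pair and different antibodies for the Foxa3 CTD pair.

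How far a list was covered by the others depended on peak strength. Each list was cut by score into 10 parts of equal size. In the strongest part of Foxa1-N3, 87.5% of the peaks met a Foxa1-C3 peak, and in the weakest 55.8% did. In the reverse direction, 47.8% of the strongest part of Foxa1-C3 met a Foxa1-N3 peak, and 2.92% of the weakest. For the Foxa2 DNA-binding domain, 94.6% of the strongest part of Foxa2-N3 met a Foxa2-C3 peak and 64.2% of the weakest, whereas the shares of Foxa2-C3 met by Foxa2-N3 were 81.0% and 9.26%. In each list, the strongest part was met more often than the weakest by every other list. Over whole lists, 68.5% of Foxa1-N3 met Foxa1-C3 (65.5 to 71.5%), and 78.0% of Foxa2-N3 met Foxa2-C3 (76.9 to 79.1%). In the other direction the shares were 13.6% of Foxa1-C3 and 29.7% of Foxa2-C3. At the length of Foxa2-N3, with 5230 peaks a list, 52.6% of Foxa2-N3 met a Foxa2-C3 peak, and equal lengths make the share in the other direction nearly the same.

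**Figure D2:**
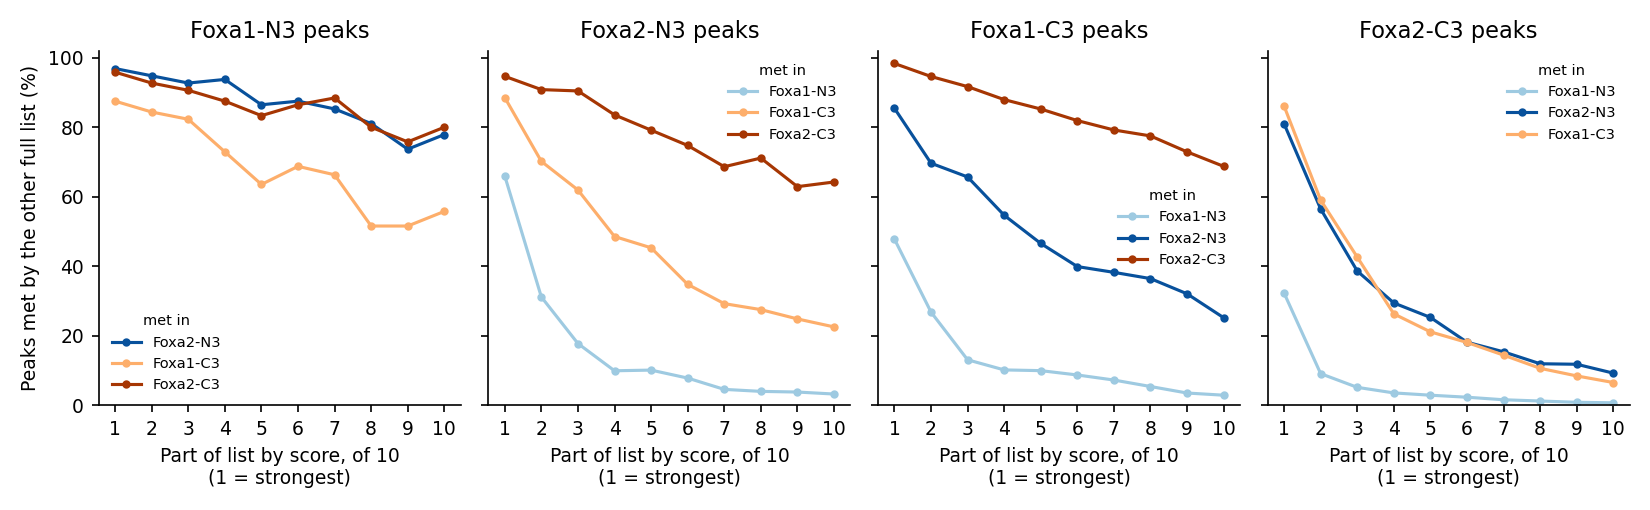
Percentage of peaks met by another full list (vertical axis) in each of 10 equal parts of a list by score (horizontal axis, 1 the strongest), with 1 panel per list and 1 line per list it was compared with. All lines lie higher at the strongest part than at the weakest, and Foxa2-C3 falls from 81.0% to 9.26% in Foxa2-N3.

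Even among the strongest 956 peaks, some sites lacked a counterpart anywhere in the full list of the other side. Of the strongest Foxa2-N3 peaks, 69 (7.22%, 5.66 to 9.05%) met no Foxa2-C3 peak, and of the strongest Foxa2-C3 peaks, 127 (13.3%, 11.2 to 15.6%) met no Foxa2-N3 peak. The list searched was 13715 peaks long in the first case and 5230 in the second. For Foxa1, 301 of the Foxa1-N3 peaks (31.5%) met no Foxa1-C3 peak, and 598 of the strongest Foxa1-C3 peaks (62.6%) met no Foxa1-N3 peak, in a list of 956.

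Most sites that were one-sided at equal length had a weaker peak on the other side. Of the 153 regions of the Foxa3 NTD pair, 92 (60.1%) held a peak in the full Foxa1-C3 list, at a median rank of 2236.5, and 133 (86.9%) in the full Foxa2-C3 list, at a median rank of 2858. A total of 16 regions (10.5%) had none in either. Of the 149 regions of the Foxa3 CTD pair, 106 (71.1%) held a peak in the full Foxa2-N3 list, at a median rank of 1705.5. The remaining 43 (28.9%) had none, and the Foxa1-N3 list has no further peaks to search. Of all 956 strongest peaks, 68.5% of Foxa1-N3 and 80.8% of Foxa2-N3 met the full Foxa1-C3 list. For the full Foxa2-C3 list it was 86.1% and 92.8%. The full Foxa2-N3 list met 77.4% of Foxa1-C3 and 86.7% of Foxa2-C3. These shares include peaks met by the strongest 956 of the other list, which one-sided regions lack by choice. One-sided sites found in a longer list thus differed in rank, while in Foxa1-N3 a lower rank could not be seen.

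Examples come from the 5 sites of best mean rank of each kind at equal length. On chromosome 8 from 66231793 to 66232359, the peak ranked 30 in Foxa1-N3 and 65 in Foxa2-N3, against 2836 in Foxa1-C3 and 2449 in Foxa2-C3. On chromosome 15 from 85875911 to 85876551, it ranked 109 in Foxa1-N3 and 10 in Foxa2-N3, against 2170 in Foxa1-C3, with no peak in Foxa2-C3. On chromosome 3 from 141694554 to 141695111, the ranks were 47 and 89 against 1899 and 6257. For the Foxa3 CTD, the region on chromosome 7 from 122235931 to 122236836 ranked 16 in Foxa1-C3 and 76 in Foxa2-C3, against 3059 in Foxa2-N3 and no peak in Foxa1-N3. The region on chromosome 9 from 62938781 to 62939636 ranked 112 in Foxa1-C3 and 53 in Foxa2-C3, against 1820 in Foxa2-N3, again with no peak in Foxa1-N3. The sites were chosen by these ranks, so the gaps are a description, and ranks in lists of different length are not on 1 scale.

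With all peaks counted, the 65 regions of the Foxa3 NTD pair were of middling strength, with a median rank of 622 in Foxa1-N3 and 2393 in Foxa2-N3. The best by mean rank lay on chromosome 6 from 16870103 to 16870591, at rank 190 in Foxa1-N3 and 508 in Foxa2-N3. The next lay on chromosome 11 from 101506560 to 101507495, at ranks 565 and 147. It also met a peak of the library titled 4a3_DA1, a pulldown with an Hnf4alpha antibody whose labels conflict and which was given no group. The 1689 regions of the Foxa3 CTD pair had a median rank of 2841 in Foxa1-C3 and 4796 in Foxa2-C3. Their best by mean rank lay on chromosome 1 from 159156614 to 159157492, at rank 61 in Foxa1-C3 and 270 in Foxa2-C3. On the same chromosome, the region from 73415964 to 73416617 ranked 26 in Foxa1-C3 and 445 in Foxa2-C3, with no Foxa3 NTD peak. Of the 65 regions, 2 (3.08%, 0.375 to 10.7%) lay within 10 kb of a Foxa1-C3 peak, against 14.2% of all regions without that list. For Foxa2-C3 it was 8 (12.3%, 5.47 to 22.8%) against 21.7%. The Foxa3 CTD regions lay within 10 kb of a Foxa2-N3 peak in 227 cases (13.4%, 11.8 to 15.2%), against 15.6%. For Foxa1-N3 it was 60 cases (3.55%, 2.72 to 4.55%), against 3.77%. The comparison regions were chosen to lack the searched list alone, whereas the one-sided regions lack both lists of that side. The sets compared are therefore unlike.

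The 600 regions with a peak in all 4 lists allow the order of sites to be compared without a question of absence. Their peaks were ranked anew within each list, from 1 to 600. Both Foxa3 NTD ranks were better than both Foxa3 CTD ranks in 127 regions (21.2%), and the reverse held in 147 (24.5%). A split by DNA-binding domain was rarer, with both Foxa1 ranks better in 77 regions (12.8%) and both Foxa2 ranks better in 80 (13.3%). Unrelated orders of the same regions would also give such splits, and these counts were not set against that share. The remaining split, Foxa1-N3 with Foxa2-C3 against Foxa2-N3 with Foxa1-C3, was not counted. Divided by list length instead, the ranks gave 33 regions for the Foxa3 NTD and 180 for the Foxa3 CTD, a shift that the 956 peaks of Foxa1-N3 bring about by construction. As a description across regions, Spearman's rho was 0.50 for the Foxa3 NTD pair and 0.69 for the Foxa3 CTD pair. It was 0.32 for the Foxa1 pair, 0.50 for the Foxa2 pair, 0.50 for Foxa2-N3 with Foxa1-C3 and 0.34 for Foxa1-N3 with Foxa2-C3. The Foxa3 NTD pair was thus no more alike in order than Foxa2-N3 was with either Foxa3 CTD list, while the Foxa3 CTD pair had the highest value. Among the pairs that include Foxa1-N3, however, the Foxa3 NTD pair was the highest, 0.50 against 0.32 and 0.34. The 600 regions took in 63.1% of the Foxa1-N3 peaks, weak ones included, but 4.38% of the Foxa2-C3 peaks. The values of pairs with and without Foxa1-N3 are therefore not alike in basis. The midpoints of the peaks differed by a median of 24.5 to 28.8 bp in the 6 pairs, so the lists placed these peaks at nearly the same position.

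**Figure D3:**
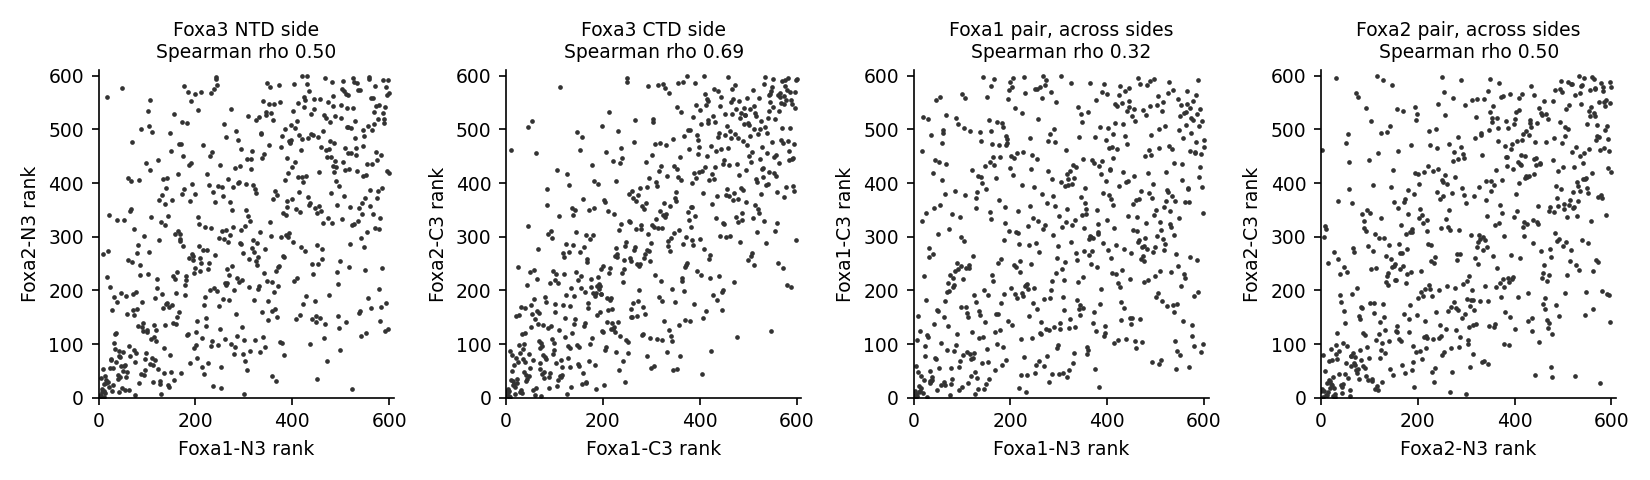
Ranks of the 600 regions with a peak in all 4 lists, from 1 (strongest) to 600, for the same-side pairs (left panels) and the pairs with the same DNA-binding domain (right panels), 1 point per region. The Foxa3 CTD pair lies closest to a line (rho 0.69), and the Foxa1 pair across the sides is the most scattered (rho 0.32).

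The widest gaps in order are given for each direction, which re-ranking within the 600 regions makes certain to occur. On chromosome 8 from 66231793 to 66232385, the ranks within the 600 regions were 29 in Foxa1-N3 and 56 in Foxa2-N3 against 520 in Foxa1-C3 and 491 in Foxa2-C3. On chromosome 7 from 142091994 to 142092526, they were 59 and 156 against 475 and 538. In the reverse direction, the region on chromosome 10 from 88181948 to 88182953 ranked 87 in Foxa1-C3 and 130 in Foxa2-C3 against 545 in Foxa1-N3 and 469 in Foxa2-N3. The region on chromosome 13 from 11627795 to 11628709 ranked 115 and 42 in the same Foxa3 CTD lists, against 575 and 443. At each of these sites the Foxa3 NTD ranks and the Foxa3 CTD ranks did not overlap, which is how the sites were chosen.

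The constructs built on the Foxa3 DNA-binding domain give lists that took no part in choosing the one-sided regions. Foxa3-C1 and Foxa3-C2 carry the CTD of Foxa1 or Foxa2, keep the Foxa3 NTD and were pulled down with the Foxa3 antibody, as the Foxa3 NTD pair was. Foxa3-N1 and Foxa3-N2 carry the NTD of Foxa1 or Foxa2, keep the Foxa3 CTD and were pulled down with antibodies to Foxa1 and Foxa2, as the Foxa3 CTD pair was. All were taken at 956 peaks. The 153 Foxa3 NTD regions were met by Foxa3-C1 in 45.8% (37.7 to 54.0%), by Foxa3-C2 in 47.7% (39.6 to 55.9%) and by Foxa3-N1 in 45.1% (37.1 to 53.3%). Foxa3-N2 met 6.54% (3.18 to 11.7%), or 10 regions. Any of the 2128 regions was met in 32.8% by Foxa3-C1, 35.3% by Foxa3-C2, 37.6% by Foxa3-N1 and 32.4% by Foxa3-N2. Of the 2128, 1180 (55.5%) carried a peak in 1 list alone. The 28 regions in both Foxa1 lists alone were met in 53.6%, 60.7%, 67.9% and 21.4%, in the same order of lists. The 53 in both Foxa2 lists alone were met in 35.8%, 45.3%, 37.7% and 45.3%. The Foxa3-C1 and Foxa3-C2 shares of the Foxa3 NTD regions were thus not above both of these. The intervals of Foxa3-C1, Foxa3-C2 and Foxa3-N1 overlapped for the Foxa3 NTD regions, and that of Foxa3-N2 lay below all 3.

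The 149 Foxa3 CTD regions were met by Foxa3-N2 in 57.0% (48.7 to 65.1%) and by Foxa3-N1 in 36.9% (29.2 to 45.2%). Foxa3-C1 and Foxa3-C2 each met 37 of them, 24.8% (18.1 to 32.6%). Both lists that share the NTD and antibody of the Foxa3 NTD pair were below their share of any region, and Foxa3-N2 was above it. Foxa3-N1 met the Foxa3 CTD regions less often than the Foxa3 NTD regions, with intervals that overlap. Taken as the mean of Foxa3-C1 and Foxa3-C2 minus the mean of Foxa3-N1 and Foxa3-N2, the difference was 20.9 percentage points for the Foxa3 NTD regions and -22.1 for the Foxa3 CTD regions. Without Foxa3-N2 it was 1.63 and -12.1. With full lists, which run from 3594 to 16543 peaks, the same 65 and 1689 regions gave 16.9 and -34.0 percentage points. Much of the second was common to all regions, since any of the 15614 was met in 35.8% by Foxa3-C1, 20.3% by Foxa3-C2, 37.6% by Foxa3-N1 and 63.9% by Foxa3-N2. The first turned to -0.882 without Foxa1-N3 and to -3.02 without Foxa2-C3.

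**Figure D4:**
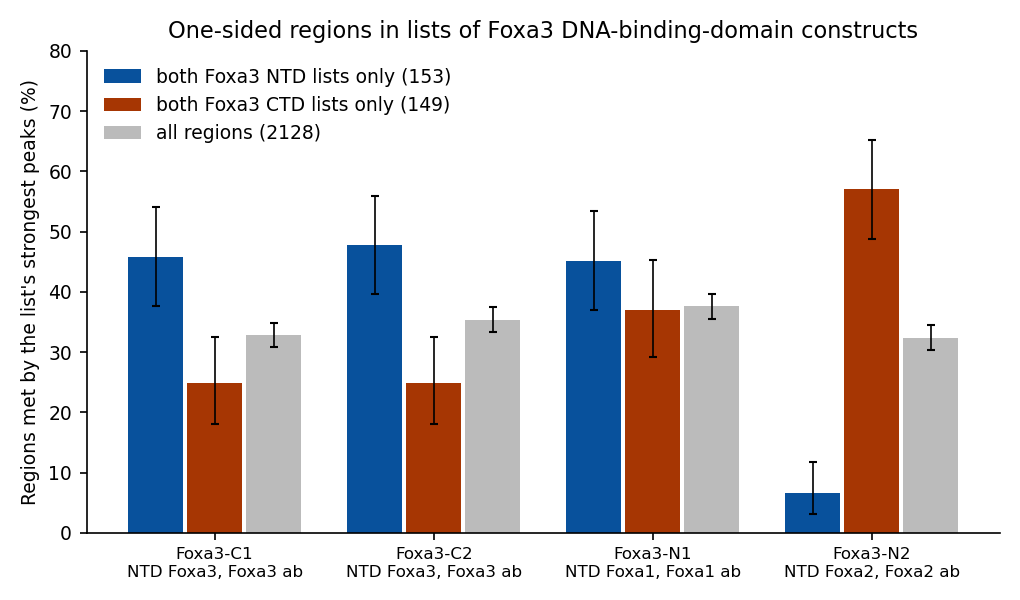
Percentage of regions (vertical axis, bars from 0) met by the 956 strongest peaks of each construct with the Foxa3 DNA-binding domain, for the 153 Foxa3 NTD regions, the 149 Foxa3 CTD regions and all 2128 regions. Error bars are exact binomial 95% intervals, and Foxa3-N2 shows the widest separation, 6.54% against 57.0%.

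With 3594 peaks of each of these lists, the length of Foxa3-C2, all shares were higher. Any of the 2128 regions was then met in 72.0% by Foxa3-C1, 70.7% by Foxa3-C2, 76.4% by Foxa3-N1 and 64.1% by Foxa3-N2. The Foxa3 NTD regions were met in 86.9% by Foxa3-C1, 85.6% by Foxa3-C2, 81.7% by Foxa3-N1 and 40.5% by Foxa3-N2. The Foxa3 CTD regions were met in 82.6%, 70.5%, 81.2% and 87.9%, the value for Foxa3-C2 lying at the share of any region. Foxa3-N2 was again the list with the lowest share of the Foxa3 NTD regions, although its full list of 16543 peaks met 88.2% of them (82.0 to 92.9%), against 88.8% of any region. Regions of all 4 lists at equal length, 248 in number, were met in 79.8 to 89.9% by the 956 strongest peaks of the 4 constructs.

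Peaks wider than 1000 bp were few in every list. There was 1 in Foxa1-N3 (0.105%), 22 in Foxa2-N3 (0.421%), 5 in Foxa1-C3 (0.104%) and 105 in Foxa2-C3 (0.766%, 0.627 to 0.926%). The Foxa1 lists were alike in this share, and the Foxa2 lists differed by 0.345 percentage points. At 956 peaks the counts were 1, 9, 3 and 44 in the same order, and at 5230 peaks Foxa2-N3 held 22 and Foxa2-C3 98. Among the 956 strongest peaks, those more than 600 bp above the narrowest of their list numbered 2, 22, 9 and 69 in the same order. At rank 956 the score was 84.6 in Foxa2-C3 and 30.9 in Foxa2-N3, so equal length did not match the lists in strength. With that limit, the excess of wide peaks in Foxa2-C3 was present at equal length. The excess of one-sided regions was not, but equal length ties those counts together and does not tie wide peaks. The median width of the 956 strongest peaks was 307 bp in Foxa1-N3, 524 bp in Foxa2-N3, 535 bp in Foxa1-C3 and 644 bp in Foxa2-C3. Counted from the narrowest peak of each list, the medians were 65, 227, 227 and 330 bp, and this median was thus equal in Foxa2-N3 and Foxa1-C3, although 9 and 3 of their peaks were above 1000 bp.

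**Figure D5:**
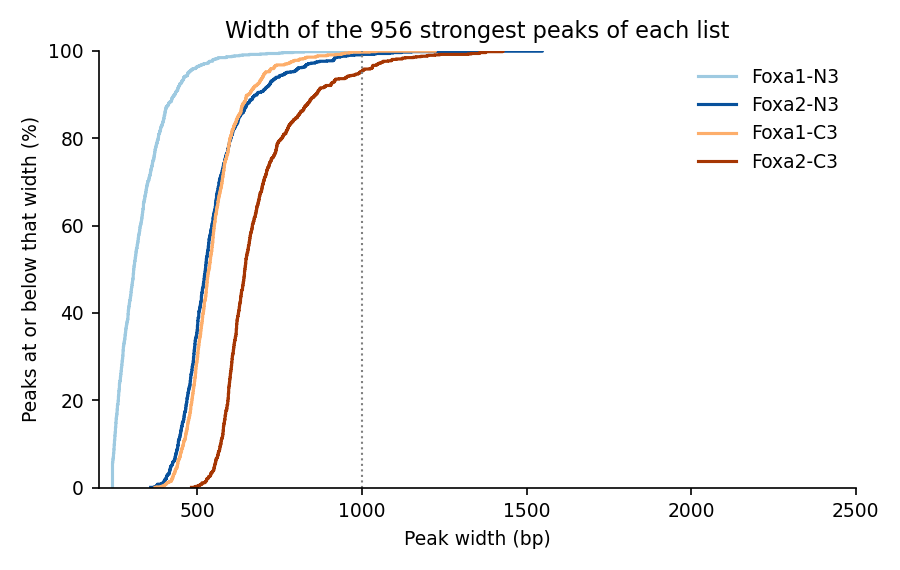
Cumulative percentage of the 956 strongest peaks of each list (vertical axis) at or below a width in bp (horizontal axis), with a dotted line at 1000 bp. Foxa2-N3 and Foxa1-C3 nearly coincide, Foxa1-N3 is the narrowest and Foxa2-C3 the widest.

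Wide peaks were rarely wide in more than 1 list. Of the 123 regions with a wide peak, 115 were wide in 1 list, 6 in 2 lists, 2 in 3 lists and 0 in all 4. In 16 the wide peak was in a Foxa3 NTD list alone, in 101 in a Foxa3 CTD list alone, and in 6 on both sides. The region wide in both Foxa3 NTD lists lay on chromosome 6 from 113960678 to 113961948, with widths of 1145 bp in Foxa1-N3 and 1105 bp in Foxa2-N3. Both Foxa3 CTD lists were wide in 3 regions. These lay on chromosome 5 from 99665362 to 99666796, on chromosome 1 from 196189460 to 196190695 and on chromosome 12 from 58417454 to 58418576. The first and the last of them were wide in Foxa2-N3 too.

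The widest peaks of all belonged to Foxa2-N3. Peaks above 1500 bp numbered 4 in Foxa2-N3, 1 in Foxa2-C3 and 0 in both Foxa1 lists. The widest covered 2440 bp on chromosome 19 from 5841142 to 5843581, where Foxa2-C3 held a peak of 358 bp and both Foxa1 lists held none. Its neighbour from 5843647 to 5845653, of 2007 bp, had no peak in the other 3 lists. The Foxa3-C1 and Foxa3-C2 lists covered both with single peaks of 6164 and 5032 bp. Another pair of wide Foxa2-N3 peaks lay on chromosome 9, from 46036538 to 46038085 and from 46038473 to 46040217, of 1548 and 1745 bp. Foxa1-N3 held peaks of 320 and 274 bp there, Foxa1-C3 held none, and Foxa3-C1 held peaks of 1456 and 1500 bp. On chromosome 7 from 149760520 to 149761925, the 1406 bp peak of Foxa2-N3 was met by none of the other 3 lists, and by peaks of 1728 bp in Foxa3-C1 and 1656 bp in Foxa3-C2. Foxa3-C1 and Foxa3-C2 share the Foxa3 NTD and the Foxa3 antibody with Foxa2-N3, and the part of either in these wide peaks was not tested. Over all 22 wide Foxa2-N3 peaks, 13 met a wide peak of Foxa3-C1, 7 one of Foxa3-C2, 7 one of Foxa3-N1, 7 one of Foxa3-N2 and 6 one of Foxa2-C3. These lists held 99, 15, 20, 106 and 105 wide peaks in the same order. Both chromosome 19 peaks and a further one, from 5839870 to 5840885, met the same Foxa3-C1 and Foxa3-C2 peaks. They are thus not separate sites in these counts. A peak of the Hnf4alpha-antibody library 4a3_DA1 was met by 5 of the 22 (22.7%, 7.82 to 45.4%), against 1.09% of the narrower Foxa2-N3 peaks. Among the 5 were both chromosome 19 peaks named above, which the interval treats as separate. The widest Foxa2-C3 peak, of 1538 bp on chromosome 3 from 122184945 to 122186482, lay where neither Foxa3 NTD list held a peak.

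Clusters were defined as 3 or more peaks of a list with gaps of at most 10 kb. Foxa1-N3 had 0 peaks in clusters, Foxa2-N3 327 (6.25%) in 99 clusters, Foxa1-C3 189 (3.93%) in 60 clusters and Foxa2-C3 2286 (16.7%) in 647 clusters. These shares moved with list length. At 956 peaks a list, 0, 0, 0 and 6 peaks lay in clusters. At 4807 peaks, the counts were 245 (5.10%) in Foxa2-N3, 189 (3.93%) in Foxa1-C3 and 258 (5.37%) in Foxa2-C3. At 5230 peaks Foxa2-N3 held 327 and Foxa2-C3 280. The order of the Foxa2 lists thus changed between these lengths, and Foxa1-C3 held fewer clustered peaks than either at 4807.

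Most Foxa2-N3 clusters met a Foxa2-C3 cluster. The share in the other direction is held low by the cluster numbers, 647 in Foxa2-C3 against 99 in Foxa2-N3. Of the 99 Foxa2-N3 clusters, 96 contained a Foxa2-C3 peak, 70 met a Foxa2-C3 cluster and 80 contained a Foxa1-C3 peak. All 60 Foxa1-C3 clusters contained a Foxa2-C3 peak, 47 met a Foxa2-C3 cluster and 53 contained a Foxa2-N3 peak. Of the 647 Foxa2-C3 clusters, 459 (70.9%) contained a Foxa2-N3 peak and 70 (10.8%) met a Foxa2-N3 cluster. Merged over the 4 lists, 753 clusters held 2677 regions (17.1%). The Foxa2-N3 list had more peaks than Foxa2-C3 in 36 of them, fewer in 657 and as many in 60. These counts come from the full lists, of 5230 and 13715 peaks, and were not repeated at equal length. With 5230 peaks each, Foxa2-N3 held 99 clusters and Foxa2-C3 85. The clusters with most regions, 10 each, lay on chromosome 4 from 108097236 to 108130206 and on chromosome 9 from 34880064 to 34909699. The first held 2 Foxa1-N3, 4 Foxa2-N3, 3 Foxa1-C3 and 9 Foxa2-C3 peaks. The second held 10 Foxa2-C3 peaks and 1 Foxa1-C3 peak, with 0 in both Foxa3 NTD lists and 2 peaks in the 4 lists of Foxa3 DNA-binding-domain constructs, both of Foxa3-N2.

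A pair of neighbouring clusters on chromosome 5 showed opposite orders. From 90854048 to 90879553, Foxa2-C3 held 8 peaks and Foxa2-N3 6, with 5 in Foxa1-C3 and 1 in Foxa1-N3. From 90889656 to 90917963, Foxa2-N3 held 8 peaks and Foxa2-C3 5, with 2 in Foxa1-C3 and 1 in Foxa1-N3. The second was the cluster with most Foxa2-N3 peaks among those named, and it contained 4 peaks of Foxa3-C1, 3 of Foxa3-C2, 4 of Foxa3-N1 and 5 of Foxa3-N2.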

How the data were processed

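ChIP-seq peak lists of iHep cells were used as deposited, 1 for each of 8 constructs and for the library titled 4a3_DA1. MACS2 2.1.0, BWA 0.6.2, bedtools 2.16.2 and the build mm9 are listed in the submitters' processing notes. Not given in the sources used here are the caller's settings, the kind of score and how inputs were used. The deposited files give a position, a name and a score for each peak, the score being the authors' value, and the lowest in the 4 lists was 5.23. Peaks were listed per sample.

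Members were chosen by the labels. The members, the comparisons and the limits for wide peaks and clusters were chosen with earlier results of these data known. Regions were merged at 1 bp of overlap, wide meant above 1000 bp, and a cluster meant 3 or more peaks with gaps up to 10 kb. Equal length meant the 956 strongest peaks. Regions named were the 5 strongest peaks of each list, up to 5 regions of each one-sided kind by mean rank and of each direction by rank gap, the widest peaks and the largest clusters. Further wide Foxa2-N3 peaks and both clusters on chromosome 5, which tie with others in size, were picked with their values in view, and the sites printed from each set are examples chosen in the same way. Peak number was compared by an exact permutation test, and other values carry no test. Alternatives were other merging rules, list lengths, width and gap limits, a score above 19.7, and leaving out each construct. Computation was in Python 3.11.15 with pandas 2.3.3, numpy 2.4.6, matplotlib 3.10.9 and scipy 1.17.1. The routines were tested on simulated lists, and they gave the counts of bedtools 2.31.1 in 28 of 28 pairs of lists.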

Additional observations from a re-analysis of the deposited data

Results flagged for a closer look

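The share of wide peaks in full lists gave differences of opposite sign in the 2 DNA-binding domains, with that of Foxa1 at practically 0. The Foxa3 NTD minus Foxa3 CTD difference was 0.000588 percentage points for Foxa1, which rests on 1 and 5 wide peaks, and -0.345 percentage points for Foxa2. The difference between these values was not tested. At 956 peaks a list both domains had fewer wide peaks with the Foxa3 NTD, 1 against 3 and 9 against 44.

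The Hnf4alpha-antibody library 4a3_DA1, with 698 peaks and no group, belonged to neither side. It served as a list to overlap with and, in 1 alternative, to leave out peaks. Its peaks were met by 9 Foxa1-N3 peaks (0.941%, 0.431 to 1.78%), 62 Foxa2-N3 peaks (1.19%, 0.910 to 1.52%), 10 Foxa1-C3 peaks (0.208%, 0.0998 to 0.382%) and 51 Foxa2-C3 peaks (0.372%, 0.277 to 0.489%). At 956 peaks a list the shares were 0.941%, 1.67%, 0.523% and 0.941% in the same order, so Foxa1-N3 and Foxa2-C3 were equal there. Among the regions that were one-sided at equal length, 8 of 153 Foxa3 NTD regions (5.23%, 2.28 to 10.04%) and 2 of 149 Foxa3 CTD regions (1.34%, 0.163 to 4.76%) met it, against 24 of all 2128 regions (1.13%).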

How the results depend on the processing

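Of 120 values recomputed over all results and alternatives, 60 stayed within a set tolerance, 54 moved beyond it and 6 changed sign. The tolerance was 1.5 times for counts and their ratio, 1 SD between constructs or pairs for peak number and the Jaccard index, and the counting error for shares. It is wide for peak number and for wide peaks, and the causes were not tested beyond what shorter or fewer lists bring about by construction. With 1 library per construct and no read counts, list length and sequencing depth cannot be separated. Merging within 1 kb, midpoints within 200 bp, reciprocal 50% overlap and, chosen after seeing the data, leaving out peaks that meet 4a3_DA1 moved none of the results they were run on beyond it. The log2 ratio of Foxa3 CTD to Foxa3 NTD regions was 4.70 with all peaks, -0.038 at equal length (153 and 149 regions), 0.25 at 478 peaks (Foxa3 CTD count 88) and 7.04 with scores above 19.7 (7 and 918 regions). The Foxa3 NTD minus Foxa3 CTD share of wide peaks was -0.172 percentage points, -1.94 at equal length, -3.03 at 478 peaks, -0.977 above 800 bp, -0.0303 with the score limit and 0.0346 above 1500 bp. The share in clusters was -7.17 points, -0.314 at equal length, 0 at 478 peaks, -4.08 with the score limit, -3.22 and -13.5 with gaps of 5 and 20 kb, and -2.87 for a neighbour within 1 kb. Regions ranked better by the Foxa3 NTD and by the Foxa3 CTD numbered 49 and 51 at equal length, 25 and 24 at 478 peaks and 26 and 27 with the score limit, and the former numbered 33 by rank over list length. The difference in lists of Foxa3 DNA-binding-domain constructs, for Foxa3 NTD regions, was -35.7 with the score limit (7 regions) and 1.63 at equal length without Foxa3-N2. For Foxa3 CTD regions it was -22.1 at equal length, -31.2 at 478 peaks, -42.9 with the score limit and -12.1 at equal length without Foxa3-N2, both values without Foxa3-N2 being chosen after seeing the data. The Jaccard difference was 0.0235 with all peaks. Leaving out each construct gave ranges of -3.09 to -0.63 for log2 peak number, 0.68 to 6.92 for the log2 ratio, 79 to 1077 and 1723 to 9565 for the one-sided counts and 0.0576 to 0.171 for the Jaccard difference. It gave -0.503 to 0.159 for the share of wide peaks (0.159 without Foxa2-C3, -0.0142 without Foxa1-N3), -13.5 to -0.806 for clusters, 197 to 818 and 218 to 812 for the rank counts, -3.02 to 12.0 (-3.02 without Foxa2-C3, -0.882 without Foxa1-N3) and -33.8 to -26.1 for the difference in lists of Foxa3 DNA-binding-domain constructs. No replicate block was fitted, since the labels number no replicates.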
